A study of Danio rerio with 20 samples.

Results

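The nucleolus is the place in the nucleus where ribosomal RNA is transcribed, modified, cut and packed with ribosomal proteins into the small and the large ribosomal subunit. Small nucleolar ribonucleoproteins guide the modifications: those of the box C/D class methylate ribose, and those of the box H/ACA class turn uridine into pseudouridine. A large assembly called the small subunit processome and a separate set of assembly factors then carry the 2 subunits towards export. The early zebrafish embryo starts with ribosomes and mRNAs laid down in the egg, and its own transcription takes over during the maternal-to-zygotic transition, when many maternal mRNAs are also cleared.

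The 39 genes described here are the nucleolar ribosome biogenesis genes that were found by name: every gene whose symbol begins with nop, utp, rrp or nol and a number, or with imp3 or imp4, and also fbl, ncl, npm1a, dkc1, gar1, nhp2, bop1, pes, wdr12, wdr43 and heatr1. They are 39 of 32105 named entries in the table of expression values. By role they comprise 3 core proteins of the box C/D class, 4 of the box H/ACA class, 17 factors of the small subunit, 10 factors of the large subunit, nucleolin (ncl) and nucleophosmin (npm1a), and 3 other genes with nol symbols. The last 3 include nol4la and nol4lb, which match the rule by symbol only and whose role in ribosome assembly is not known here.

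RNA was sequenced from 20 libraries of whole wild-type AB embryos, each injected with a morpholino at the 1-cell stage. A morpholino is a synthetic antisense oligomer. The groups received TUT4MO, TUT7MO or both together (TUT47MO), morpholinos that the labels describe as blocking translation of TUT4 and TUT7, or the control morpholino ConMO. TUT4 and TUT7 are terminal uridylyltransferases, enzymes that add uridines to RNA ends, and the study asks about their part in clearing maternal mRNA. Since translation is blocked, the mRNA of the targets is no check of the knockdown. Set rs1a has 1 library for each of the 4 injections at each of 2, 4 and 6 hours after fertilization (hours post fertilization, hpf). Set rs1b holds TUT47MO and ConMO at 3 and 6 hpf, and set rs2 holds TUT47MO and ConMO at 3 and 5 hpf. This gives 3 early pairs (2 or 3 hpf) and 3 late pairs (5 or 6 hpf) of TUT47MO and ConMO, 1 pair a set, and the series text states that the 3 sets were carried out independently.

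The libraries held 1.19e+07 to 3.28e+07 estimated reads. Values are CPM, a gene's reads relative to the library total after trimmed-mean scaling of that total. The scaled total differs from the total of reads, so the values are relative levels and not shares of a library's RNA. In such values fewer cells and less RNA per cell cannot be told apart. No lengths were used, so levels are compared within a gene and not between genes. In 6 of the 12 rs1a libraries, namely the 4 taken at 6 hpf and the 4 hpf libraries of TUT7MO and TUT47MO, 2 entries named AC024175.4 and AC024175.17 took 44.6 to 51.6% of the reads, against 9.88 to 14.4% in the remaining libraries of that set, while sets rs1b and rs2 had 1.17 to 9.54%. The late embryos also differed in stage markers. The summed level of 12 maternal markers was 2020 to 2851 CPM in late TUT47MO libraries and 623 to 1217 CPM in late ConMO libraries, and that of 14 zygotic markers was 2436 to 3245 CPM in TUT47MO and 9945 to 16682 CPM in ConMO. In the late test, 10 of the 12 maternal markers were higher and 13 of the 14 zygotic markers were lower in TUT47MO. The part of these differences in the results on the nucleolar genes was not tested.

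Many of the nucleolar genes were lower in late TUT47MO embryos than in late ConMO embryos. Of 38 members tested, 22 were lower and 1, nol4la, was higher at an adjusted p under 0.05. Among all 18009 genes tested, 24% were lower and 26.7% were higher (50.7% in either direction). The median log2 difference (TUT47MO minus ConMO) was -0.88 over the members and 0.06 over all genes. All 3 box C/D members, all 4 box H/ACA members, and both ncl and npm1a were lower, against 8 of the 17 small subunit factors and 5 of the 10 large subunit factors. The 3 late pairs gave like medians over the 39 members, -0.63 in rs1a, -0.58 in rs1b and -0.66 in rs2. In these pairs 33, 31 and 32 members were lower, where 46.4, 44.6 and 48.9% of 20122 genes were lower. In all 3 pairs 28 members were lower, while 3 (nol8, nol4la and nol4lb) were higher, and the share of all genes that did so was not computed. For 20 members every TUT47MO library lay below every ConMO library, where 23.2% of all genes tested did so. The 1 member that was not tested, nol4lb, did not pass the filter on low values, with 0 to 1.19 CPM over the 20 libraries. The test was limma on log2(CPM + 1) with the set as a block, and it compared 3 libraries with 3. Without set rs1a, which leaves 1 residual degree of freedom, 11 members were lower. With the scaling of the deposited values, which leaves set rs1b without a correction for depth, 8 were lower. The shares of all genes called in these fits were not computed. With the rs1a pair at 4 hpf added to the late pairs, limma called 0 members and 0 of 18307 genes (smallest adjusted p = 0.0634). In that fit 22 members were lower and 0 higher at an unadjusted p under 0.05, where 20.3% of all genes were lower and 21.2% were higher.

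**Figure D1:**
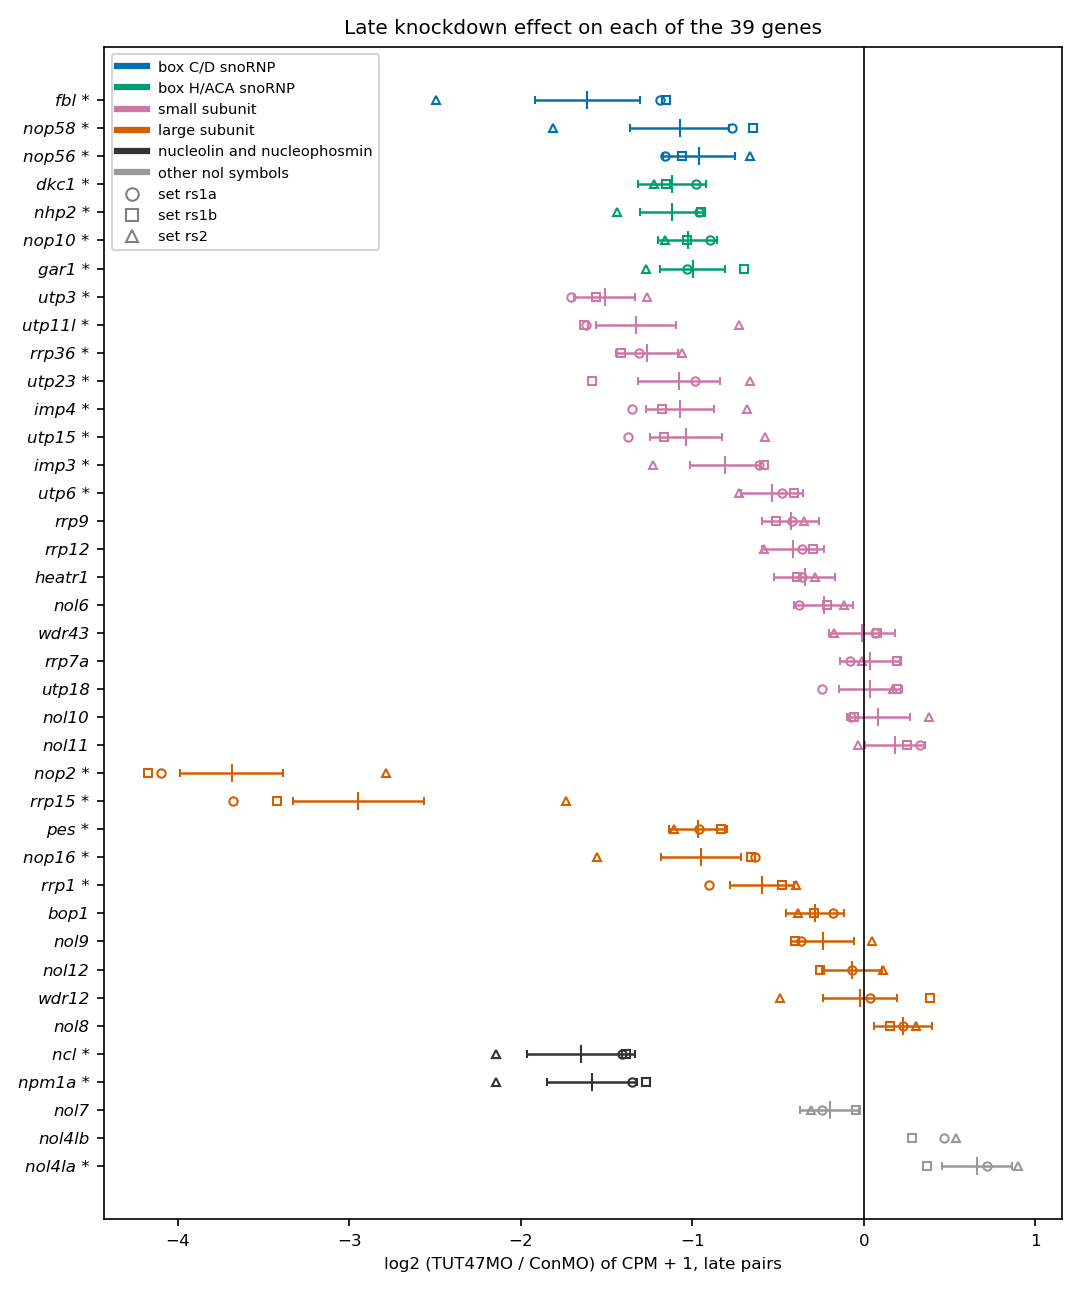
Log2 difference of TUT47MO from ConMO in each of the 3 late pairs (points, by set) for the 39 genes, ordered by role, with the limma estimate and its standard error. An asterisk marks an adjusted p under 0.05. The lowest differences are those of nop2 and rrp15, the box C/D and box H/ACA genes all lie below 0, and nol4la is the 1 gene called higher.

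The box C/D core proteins form the enzyme that methylates ribosomal RNA, with fbl (fibrillarin, ENSDARG00000053912 in the files) as the methyltransferase. In the late libraries of sets rs1a, rs1b and rs2, in this order throughout, fbl stood at 199.5, 207 and 72.1 CPM in TUT47MO and at 457, 461 and 409.9 CPM in ConMO. Every TUT47MO library lay below every ConMO library, and the rs2 library at 5 hpf was the lowest. The log2 difference was -1.61 ± 0.31 (SE, adjusted p = 0.00658). The scaffold protein nop56 had 205, 266 and 233 CPM in TUT47MO and 458, 554 and 370.3 CPM in ConMO, and its partner nop58 had 400.1, 468 and 167 CPM in TUT47MO and 681, 733 and 586 CPM in ConMO. Neither gene's groups overlapped, and for nop58 the rs2 pair was further apart than the others. Their log2 differences were -0.96 ± 0.21 (adjusted p = 0.0106) and -1.07 ± 0.29 (adjusted p = 0.0225). Without set rs1a the adjusted p was 0.165 for nop56 and 0.0717 for nop58, and without set rs1b it was 0.0841 for nop56. With the deposited scaling it was 0.209 for nop56 and 0.138 for nop58, and without the set as a block 0.0662 for nop58.

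The box H/ACA proteins dkc1 (dyskerin, the pseudouridine synthase), gar1, nhp2 and nop10 were lower by like amounts, with log2 differences from -1.12 to -0.998. Late dkc1 stood at 274, 239 and 193 CPM in TUT47MO and 540.1, 534 and 450.3 CPM in ConMO, a log2 difference of -1.12 ± 0.20 (adjusted p = 0.00534). For nhp2 the values were 98.3, 101 and 59.3 CPM in TUT47MO and 192, 197 and 163 CPM in ConMO (log2 difference -1.12 ± 0.19, adjusted p = 0.00467). Late nop10 had 27.1, 17.9 and 20.6 CPM in TUT47MO and 51.3, 37.5 and 47.3 CPM in ConMO (log2 difference -1.03 ± 0.17, adjusted p = 0.00453). In each of the 3 genes the groups lay apart. The early level of dkc1, for scale, was 204, 187 and 224 CPM in TUT47MO and 188, 188 and 226 CPM in ConMO. The gene gar1 had 26.9, 37.3 and 18 CPM in TUT47MO and 55.9, 61 and 44.8 CPM in ConMO (log2 difference -0.998 ± 0.19, adjusted p = 0.00658), again with no overlap. It is the 1 gene of the 4 whose rs1a value was already low at 4 hpf: 41.8 CPM in TUT4MO, 20.1 CPM in TUT7MO, 21 CPM in TUT47MO and 37.1 CPM in ConMO. The 2 low libraries are the 2 of that hour in which the entries AC024175.4 and AC024175.17 took 44.7 and 44.6% of the reads, and the part of this in the gar1 values was not tested. Without set rs1a the adjusted p was 0.0557 for dkc1 and 0.0559 for gar1. With the deposited scaling all 4 calls were lost, at 0.106 for dkc1, 0.125 for gar1, 0.0831 for nhp2 and 0.105 for nop10.

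The small subunit processome is a large particle that forms on the nascent ribosomal RNA around the U3 small nucleolar RNA. Of the 17 small subunit factors here, a wider group than that particle, 8 were lower in late TUT47MO embryos, 9 were not called and none was higher. Among those chosen for their role, imp4, which works with imp3 and mphosph10 in joining U3 to the precursor, had 30.6, 37.4 and 35.5 CPM in TUT47MO and 79.8, 85.9 and 57.6 CPM in ConMO (log2 difference -1.07 ± 0.20, adjusted p = 0.00606). Its partner imp3 had 32.2, 29 and 8.89 CPM in TUT47MO and 49.8, 43.9 and 22.1 CPM in ConMO (log2 difference -0.81 ± 0.21, adjusted p = 0.0183). The imp4 groups lay apart, while the imp3 groups overlapped between sets, the rs2 library being the lowest in each group. Of the subcomplex that binds first, t-UTP or UTP-A, the genes chosen for their role were utp15, wdr43 and heatr1, and these were uneven. This does not cover the whole subcomplex. The gene utp15 had 36.1, 32.2 and 60.0 CPM in TUT47MO, against 95.2, 73.3 and 89.8 CPM in ConMO, with no overlap (log2 difference -1.04 ± 0.21, adjusted p = 0.00819). The genes wdr43 and heatr1 were not called. For wdr43 the values were 286, 275 and 271 CPM in TUT47MO and 273, 260.5 and 306 CPM in ConMO, with overlap and a log2 difference of -0.01 ± 0.19 (adjusted p = 0.966). For heatr1 they were 124, 172 and 219 CPM in TUT47MO and 159.8, 225 and 268 CPM in ConMO, lower in each pair but overlapping between sets (log2 difference -0.34 ± 0.18, adjusted p = 0.145). Without set rs1a the adjusted p was 0.0868 for utp15, 0.089 for imp3 and 0.0658 for imp4, and without set rs2 heatr1 had a log2 difference of -0.37 at an adjusted p of 0.00329. Limma also called heatr1 lower with median-of-ratios scaling (adjusted p = 0.0394) and in a fit of the 12 early and late libraries (0.0169). With the deposited scaling the adjusted p was 0.112 for utp15, 0.281 for imp3 and 0.0913 for imp4, and without the set as a block 0.235 for imp3.

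Of the processome genes, rrp9, utp18 and nol6 were not called either. The U3 protein rrp9 had 62.4, 75.3 and 44.8 CPM in TUT47MO and 83.8, 108 and 57.2 CPM in ConMO, lower in every pair (log2 difference -0.43 ± 0.17, adjusted p = 0.0708). Without set rs2 its log2 difference was -0.47 at an adjusted p of 0.000694. Limma also called rrp9 lower with median-of-ratios scaling (adjusted p = 0.0213) and with mitochondrial and AC024175 entries left out of the totals (0.0332). A fit of the 12 early and late libraries called it too (0.00563). The UTP-B protein utp18 had 33.7, 50.9 and 70.3 CPM in TUT47MO and 40.1, 44.4 and 62.4 CPM in ConMO, with overlap (log2 difference 0.04 ± 0.18, adjusted p = 0.866). The factor nol6, which stands with rrp7a in a subcomplex known from yeast, had 105, 112 and 145 CPM in TUT47MO and 137, 130.3 and 157 CPM in ConMO (log2 difference -0.23 ± 0.17, adjusted p = 0.293), and without set rs2 it was called at a log2 difference of -0.29 (adjusted p = 0.027). Named after their values were seen, the other 5 small subunit factors lower in late TUT47MO than in late ConMO were utp3, rrp36, utp11l, utp23 and utp6. The clearest were utp3, at 29.4, 42.5 and 28.2 CPM in TUT47MO and 98.4, 127 and 68.9 CPM in ConMO (log2 difference -1.51 ± 0.18, adjusted p = 0.00199), and utp11l, at 20.8, 25.9 and 21.1 CPM in TUT47MO and 65.9, 82.2 and 35.7 CPM in ConMO (log2 difference -1.33 ± 0.23, adjusted p = 0.00525). In both genes the groups lay apart, by a wide margin in rs1a and rs1b and a narrower one in rs2. The log2 differences of the other 3 were -1.26 ± 0.18 for rrp36, -1.08 ± 0.24 for utp23 and -0.54 ± 0.18 for utp6. Of the 4 small subunit factors not yet described, the log2 differences were 0.08 ± 0.18 for nol10, 0.18 ± 0.18 for nol11 and 0.04 ± 0.18 for rrp7a, none of them called. The last, rrp12, had 159.8, 175 and 174 CPM in TUT47MO and 206, 214 and 261 CPM in ConMO, apart between the groups but not called (log2 difference -0.41 ± 0.18, adjusted p = 0.103).

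Large subunit factors held both the lowest late log2 differences of TUT47MO from ConMO and several genes with little difference. The strongest was nop2 (ENSDARG00000043304 in the files), a methyltransferase of the large subunit's ribosomal RNA, at 6.28, 9.16 and 13.3 CPM in TUT47MO and 123, 182 and 97.2 CPM in ConMO. The groups lay far apart, with every TUT47MO library below every ConMO library. The log2 difference was -3.69 ± 0.30 (adjusted p = 0.00136). Next came rrp15 (ENSDARG00000013478), a factor of the pre-60S particle, at 4.71, 7.34 and 15.9 CPM in TUT47MO and 72, 88.4 and 55.2 CPM in ConMO, a log2 difference of -2.95 ± 0.38 (adjusted p = 0.00223). In both genes the rs2 library at 5 hpf was the highest of the TUT47MO libraries and the lowest of the ConMO libraries. Both differences passed the test without any 1 set, at log2 -3.44 or lower for nop2 and -2.58 or lower for rrp15.

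The PeBoW complex, made of pes, bop1 and wdr12, is needed to process the large subunit's ribosomal RNA, and of its genes pes alone was called. Late pes had 66.1, 84 and 61 CPM in TUT47MO and 129.7, 150.3 and 132 CPM in ConMO, with no overlap (log2 difference -0.97 ± 0.17, adjusted p = 0.00523). Late bop1 had 121, 67.4 and 98 CPM in TUT47MO and 137, 82.4 and 128 CPM in ConMO, lower in each pair but not called (log2 difference -0.28 ± 0.17, adjusted p = 0.199). Under 2 of 15 alternatives limma called bop1 lower. These were median-of-ratios scaling (-0.48, adjusted p = 0.0442) and a fit of the 12 early and late libraries (-0.28, adjusted p = 0.0309). Late wdr12 had 56.2, 80.5 and 29.5 CPM in TUT47MO and 54.7, 61.3 and 41.7 CPM in ConMO, higher in rs1a and rs1b and lower in rs2 (log2 difference -0.02 ± 0.22, adjusted p = 0.94). The differences between these genes were not tested. The assembly factors nop16 and rrp1 were lower, with log2 differences of -0.95 ± 0.24 (adjusted p = 0.0165) and -0.59 ± 0.19 (adjusted p = 0.0374), but their groups overlapped between sets: nop16 had 42.4, 55.5 and 13.3 CPM in TUT47MO and 66.3, 88.1 and 40.9 CPM in ConMO. For rrp1 the values were 55.3, 81.5 and 119 CPM in TUT47MO and 104, 114 and 157 CPM in ConMO. At the other end nol8 was not called, at 110.1, 109 and 159 CPM in TUT47MO and 93.7, 97.5 and 128 CPM in ConMO (log2 difference 0.23 ± 0.17, adjusted p = 0.284). The last large subunit factors, nol9 (-0.24 ± 0.18) and nol12 (-0.07 ± 0.17), were not called. Without set rs1a the adjusted p was 0.0612 for pes and 0.408 for rrp1, and without set rs1b it was 0.132 for rrp1. With the deposited scaling it was 0.168 for pes, 0.159 for nop16 and 0.638 for rrp1, and without the set as a block 0.177 for nop16 and 0.182 for rrp1.

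Nucleolin and nucleophosmin are abundant nucleolar proteins that bind ribosomal RNA and act as chaperones of assembly. Late ncl (ENSDARG00000002710) stood at 968, 918 and 577 CPM in TUT47MO and 2568, 2405 and 2549.9 CPM in ConMO, and late npm1a (ENSDARG00000014329) at 387, 379.8 and 180.3 CPM in TUT47MO and 986, 916 and 799 CPM in ConMO. In both genes the groups lay apart, the ConMO libraries were close together, and the rs2 library at 5 hpf was the lowest of the TUT47MO libraries. The log2 difference was -1.65 ± 0.31 for ncl (adjusted p = 0.00671) and -1.59 ± 0.26 for npm1a (adjusted p = 0.00432). For ncl the adjusted p was 0.0597 without set rs1a and 0.0523 without set rs1b.

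The remaining genes with nol symbols were not among the lower ones. The nucleolar protein gene nol7 was not called, at 97.1, 122 and 59.1 CPM in TUT47MO and 115, 126 and 73.4 CPM in ConMO (log2 difference -0.20 ± 0.17, adjusted p = 0.358). The 1 gene called higher, nol4la, was at a low level, 2.2, 1.77 and 2.76 CPM in TUT47MO and 0.945, 1.14 and 1.01 CPM in ConMO, with no overlap (log2 difference 0.66 ± 0.20, adjusted p = 0.0345). This call was lost under 8 of 15 alternatives. The adjusted p was 0.143 without set rs1a, 0.0588 without set rs1b, 0.0532 without the set as a block and 0.228 with the 4 hpf pair added. It was 0.0714 with median-of-ratios scaling, 0.111 with DESeq2, 0.0706 with no filter on low values and 0.0565 with mitochondrial and AC024175 entries left out of the totals. The related gene nol4lb was listed at 0.549, 0.214 and 0.653 CPM in TUT47MO and 0.118, 0 and 0.138 CPM in ConMO and was not tested. Whether reads that the pair shares were split between them in the authors' counting was not tested.

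No difference of the nucleolar genes was detected in the early pairs. In the 3 early pairs none of the 39 members was called by limma, edgeR or DESeq2, and 0.00609% of the 16421 genes tested were called in either direction. At an unadjusted p under 0.05, 1 member (nol4lb, log2 difference 0.30 ± 0.11) was higher and 0 were lower, where 4.4% of all genes were higher and 2.05% were lower. The log2 differences ran from -0.16 to 0.30 with a median of 0.0015 over the members and 0.0023 over all genes. For fbl the early libraries of rs1a (2 hpf), rs1b (3 hpf) and rs2 (3 hpf) had 144, 128 and 130.2 CPM in TUT47MO and 149, 135 and 126 CPM in ConMO, and for nop2 they had 9.92, 14.6 and 8.87 CPM in TUT47MO and 13.7, 14.8 and 9.06 CPM in ConMO. Both genes lay within the same range in the 2 groups. The early level of npm1a was 265, 235 and 212 CPM in TUT47MO and 269, 244 and 223 CPM in ConMO, and that of ncl was 711, 676 and 890.4 CPM in TUT47MO and 747, 732 and 847 CPM in ConMO. The standard errors of the early log2 differences were 0.05 for fbl, 0.05 for ncl and 0.10 for nop2.

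The change of the knockdown effect between the phases was tested itself, in 1 fit of the 12 early and late libraries. The effect was lower late than early for 24 of the 39 members and higher for 1, nol4la, where 22.9% of the 18884 genes tested were lower and 25.1% were higher (48% in either direction). The median was -0.81 over the members and 0.07 over all genes. The largest differences of the effect, late minus early, were -3.53 ± 0.37 for nop2 (log2, SE, adjusted p = 0.00045), -2.85 ± 0.47 for rrp15 (adjusted p = 0.00218), -1.61 ± 0.27 for ncl (adjusted p = 0.00262) and -1.58 ± 0.34 for fbl (adjusted p = 0.0072). All 7 members of the box C/D and box H/ACA classes passed, from -1.58 for fbl to -0.96 for nop56. The gene rrp9 passed this test (-0.42 ± 0.14, adjusted p = 0.0372) and so did rrp12 (-0.44 ± 0.15, adjusted p = 0.0402), a factor of subunit export known from yeast and named here after its value was seen. Neither gene was called in the late test. The fit of both phases uses a common estimate of the spread for early and late pairs, and both genes had smaller standard errors in it than in the late test. In the separate fits fbl, ncl and nop2 had larger standard errors late than early, so for such genes the common estimate pools unlike spreads. The calls of rrp9 and rrp12 in this test use that estimate, and how far they depend on it was not tested. The count of members with a lower effect was 7 without set rs1a, 13 without set rs1b, 14 without the pair as a block and 6 with the deposited scaling. The shares of all genes called in these alternatives were not computed. Without set rs1a the adjusted p was 0.0658 for fbl, 0.0887 for nop56, 0.111 for nop58, 0.074 for gar1, 0.0712 for utp15, 0.11 for imp3, 0.0689 for imp4, 0.243 for rrp9, 0.158 for rrp1, 0.104 for nop16, 0.0558 for rrp15, 0.0553 for ncl and 0.191 for nol4la. Without set rs1b it was 0.0605 for nop56, 0.068 for nop58, 0.0774 for utp15, 0.0625 for imp3, 0.0616 for imp4, 0.245 for rrp9, 0.0757 for rrp1, 0.0839 for nop16 and 0.0799 for nol4la. With the deposited scaling the calls of fbl, nop2, rrp15 and npm1a were the ones kept among the genes named by the rule, and that of ncl was lost at 0.0526.

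In control embryos a number of these genes rose across the transition. In the 3 late against the 3 early ConMO libraries, 20 of the 39 members were higher and 5 were lower, where 36.8% of the 18082 genes tested were higher and 35.2% were lower (72% in either direction). The median log2 difference, late minus early, was 0.51 over the members and -0.02 over all genes. These late ConMO libraries are the same ones that the late TUT47MO libraries were set against, so the 2 comparisons are not independent. Higher late were all 3 box C/D members, all 4 box H/ACA members, ncl, npm1a, 6 of 10 large subunit factors and 5 of 17 small subunit factors. Summed zygotic markers were at 9945 to 16682 CPM in late and 4.48 to 9.69 CPM in early ConMO libraries, and their part was not tested. With the scaling of the deposited values 2 members were higher and 1 was lower, and the share of all genes called in that fit was not computed.

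**Figure D2:**
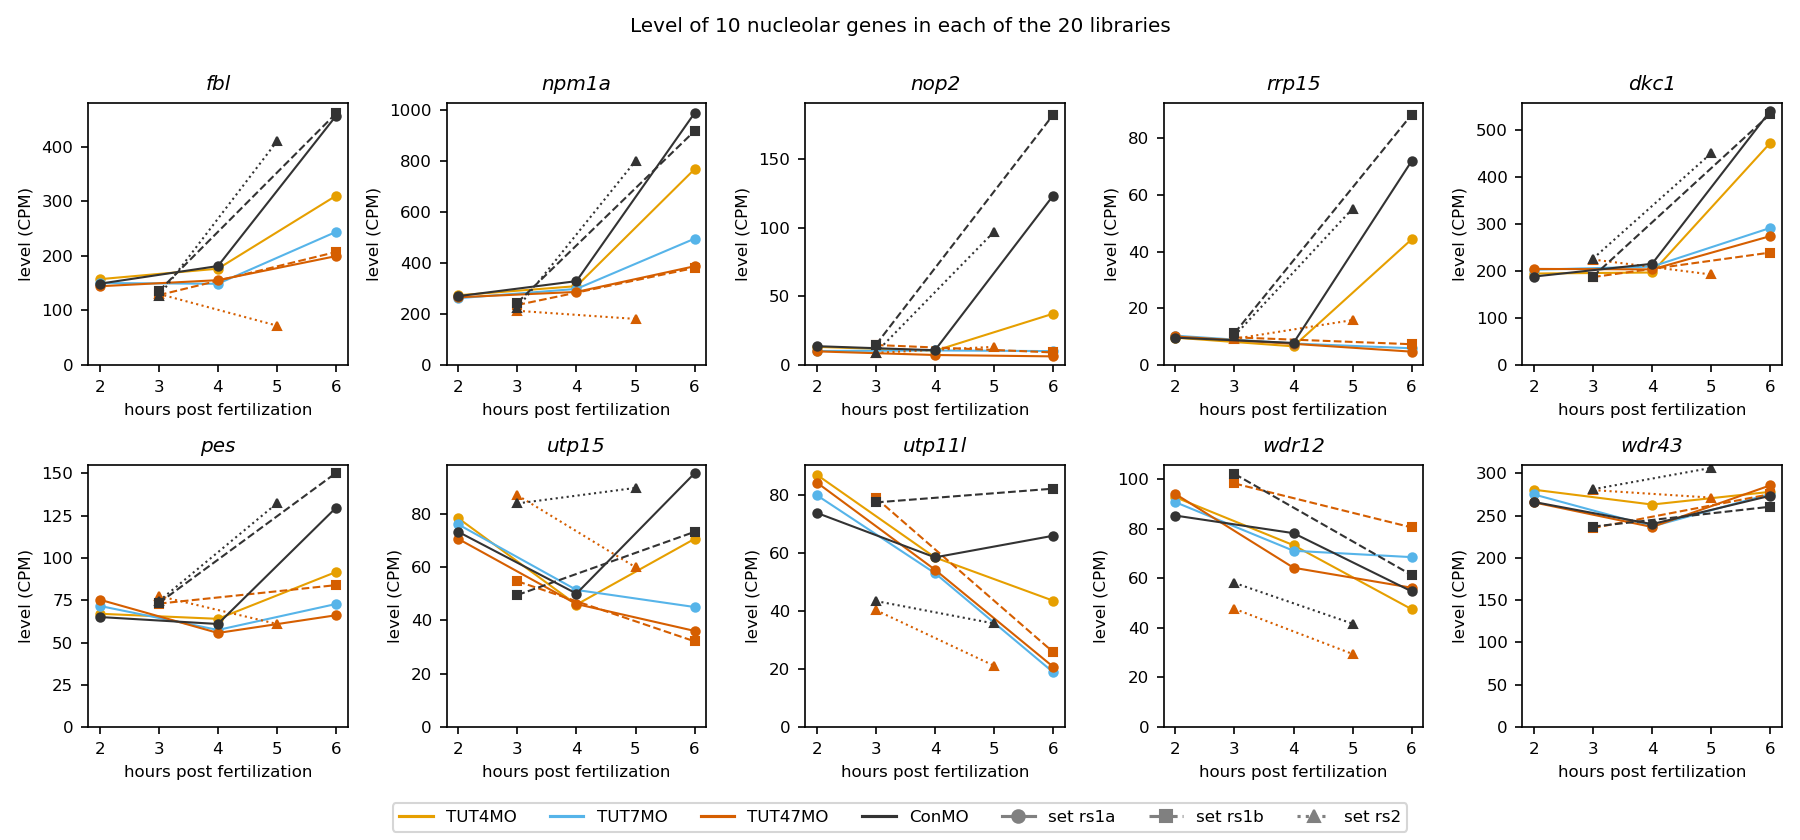
Levels (CPM, linear axis) of 10 of the genes against hours post fertilization in the 20 libraries, with colours for the morpholino and markers for the set. At 5 and 6 hpf the TUT47MO points of fbl, npm1a, nop2, rrp15 and dkc1 lie below the ConMO points, while the points of wdr43 and wdr12 overlap.

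The largest rises among the members in ConMO were those of nop2 and rrp15. For nop2 the late ConMO libraries had 123, 182 and 97.2 CPM and the early ones 13.7, 14.8 and 9.06 CPM (log2 difference 3.30 ± 0.15, adjusted p = 3.49e-06). For rrp15 they had 72, 88.4 and 55.2 CPM late and 9.65, 11.2 and 10.3 CPM early (log2 difference 2.65 ± 0.17, adjusted p = 1.38e-05). Late and early ConMO libraries lay far apart in both genes. The early TUT47MO libraries had 9.92, 14.6 and 8.87 CPM of nop2 and 10.1, 9.76 and 9.23 CPM of rrp15. The late TUT47MO libraries of both genes were lower than these in rs1a and rs1b and higher in rs2, and this course was not tested.

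The genes npm1a, fbl and ncl rose in ConMO by smaller amounts. The late ConMO libraries had 986, 916 and 799 CPM of npm1a, against 269, 244 and 223 CPM in the early ones (log2 difference 1.87 ± 0.11, adjusted p = 1.05e-05). The late ConMO libraries had 457, 461 and 409.9 CPM of fbl, against 149, 135 and 126 CPM in the early ones (log2 difference 1.69 ± 0.11, adjusted p = 1.67e-05). For both genes and for ncl (1.69 ± 0.12, adjusted p = 2.25e-05) every late ConMO library lay above every early one. In TUT47MO the late libraries of npm1a and fbl were above the early library of their set in rs1a and rs1b and below it in rs2.

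**Figure D3:**
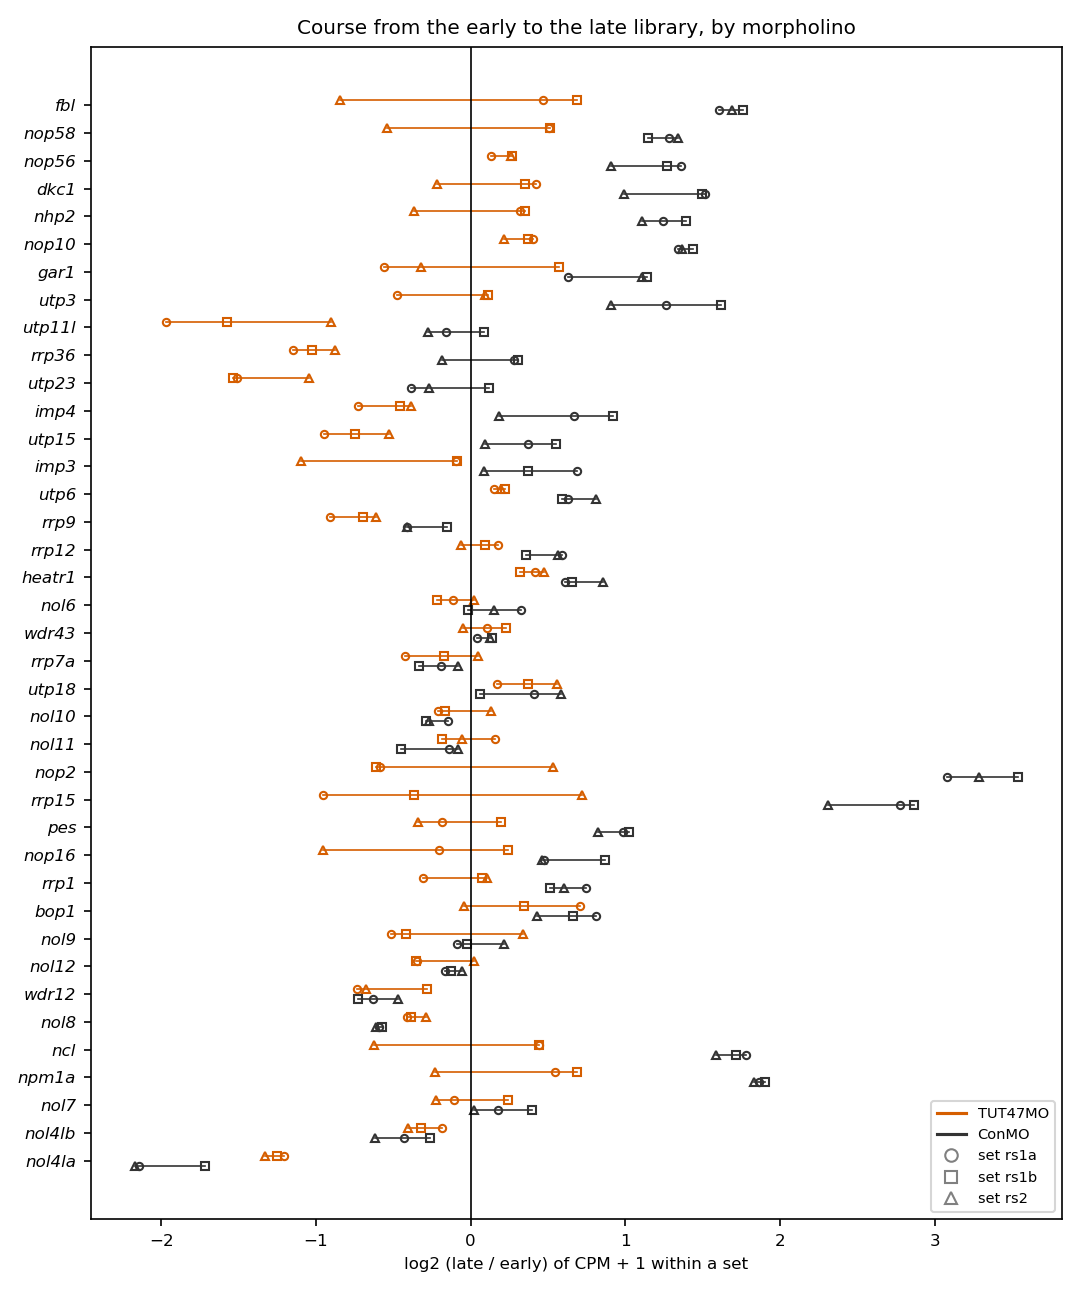
Log2 difference of the late from the early library within each set (points), with the TUT47MO course drawn above the ConMO course for each gene. The median over the 39 genes is -0.19, 0.07 and -0.22 in TUT47MO and 0.59, 0.51 and 0.43 in ConMO for rs1a, rs1b and rs2.

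In the other genes the ConMO course was mixed. The log2 differences of late from early ConMO were 1.38 ± 0.14 for nop10, 1.34 ± 0.14 for dkc1, 1.26 ± 0.11 for nop58, 1.25 ± 0.12 for nhp2, 1.18 ± 0.13 for nop56 and 0.96 ± 0.16 for gar1, with adjusted p of 0.00119 or less. In the small subunit group heatr1 (0.71 ± 0.12, adjusted p = 0.00122) and imp4 (0.59 ± 0.17, adjusted p = 0.0148) rose. So did utp3, utp6 and rrp12, named after their values were seen. Of the PeBoW genes pes (0.94 ± 0.12, adjusted p = 0.000317) and bop1 (0.63 ± 0.13, adjusted p = 0.0035) were higher late, whereas wdr12 was lower (-0.61 ± 0.13, adjusted p = 0.00382). ConMO wdr12 had 54.7, 61.3 and 41.7 CPM late and 85.3, 102 and 58.1 CPM early. Also lower late were nol8 (-0.59 ± 0.11, adjusted p = 0.00238), nol4la (-2.01 ± 0.21, adjusted p = 0.000126), rrp9 (-0.32 ± 0.13, adjusted p = 0.0498) and nol4lb, which was under 1 CPM in every ConMO library. The call of rrp9 was lost without set rs1a (0.304), rs1b (0.0593) or rs2 (0.0729), by the adjusted p in brackets. That of imp4 was lost without rs1a (0.0694) and without rs1b (0.099), and that of nop16 (0.60 ± 0.14 with all sets) without rs1b (0.0527).

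For utp15 and imp3, and for utp11l, utp23 and rrp36, which were named after their values were seen, the ConMO course was not called (adjusted p of 0.0576 or more), while all 5 were lower in late TUT47MO. Without set rs2, utp15 (0.46, adjusted p = 0.00372) and imp3 (0.53, adjusted p = 0.00248) were called higher in late ConMO. The early libraries had 84.3, 79 and 40.3 CPM of utp11l in TUT47MO and 73.8, 77.4 and 43.4 CPM in ConMO. In TUT47MO every late library of utp11l was below its early library, by the most in rs1a, whereas late and early ConMO libraries overlapped. The early libraries had 70.6, 54.7 and 87 CPM of utp15 in TUT47MO and 73.3, 49.6 and 83.9 CPM in ConMO. Again each late TUT47MO library was below its early one, while each late ConMO library was above it. For utp23 the late libraries had 9.73, 7.28 and 12.6 CPM in TUT47MO and 20.2, 23.9 and 20.6 CPM in ConMO, and the early ones had 29.5, 23 and 27.1 CPM in TUT47MO and 26.7, 21.9 and 25 CPM in ConMO. Each late TUT47MO library lay below all 6 early libraries of that gene, and the ConMO libraries of the 2 phases overlapped.

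The hours in between were sampled in set rs1a. At 4 against 2 hpf, over all 4 morpholinos as blocks, 13 of the 39 members fell and 2 rose, where 17.5% of the 16531 genes tested were lower and 21.5% were higher (39% in either direction). The median log2 difference was -0.08 over the members and 0.02 over all genes. In TUT7MO and TUT47MO the entries AC024175.4 and AC024175.17 went from 11.6 and 11.7% of reads at 2 hpf to 44.7 and 44.6% at 4 hpf. In TUT4MO and ConMO they went from 9.88 and 10.9% to 13.5 and 14.4%. The part of this in the step was not tested. The falls were in the subunit factors and were modest: 8 of the 17 small subunit factors, 4 of the 10 large subunit factors and nol7. The largest was utp15, at 45.9, 51.5, 46.2 and 50.1 CPM at 4 hpf in TUT4MO, TUT7MO, TUT47MO and ConMO, against 78.4, 76, 70.6 and 73.3 CPM at 2 hpf (log2 difference -0.61 ± 0.05, adjusted p = 1.83e-05). The hours lay apart with each morpholino. Next were utp23 (-0.58 ± 0.08), utp11l (-0.53 ± 0.06) and rrp36 (-0.46 ± 0.08), named after their values were seen, then imp4 (-0.39 ± 0.06, adjusted p = 0.000703), rrp15 (-0.39 ± 0.08, adjusted p = 0.00438), nop16 (-0.35 ± 0.06, adjusted p = 0.00078) and wdr12 (-0.34 ± 0.07, adjusted p = 0.00253). The 2 that rose were bop1 (0.24 ± 0.05, adjusted p = 0.00258) and npm1a (0.19 ± 0.05, adjusted p = 0.0123). None of the box C/D and box H/ACA members passed. The step depends on scaling: with the deposited values 30 members were lower and 0 higher. The median was then -0.26 over the members and -0.13 over all genes, and the share of all genes called was not computed. Under that scaling nop56, dkc1, nhp2 and utp18 turned to a called fall of -0.18, -0.12, -0.17 and -0.18 in log2. Without the TUT7MO libraries npm1a (0.0526), pes (0.102), wdr43 (0.121), heatr1 (0.206), rrp9 (0.162) and nol7 (0.078) missed the threshold, by the adjusted p in brackets. Without the TUT47MO libraries heatr1 (0.107), wdr43 (0.0896), rrp9 (0.163) and pes (0.107) missed it, without TUT4MO rrp9 (0.0605), and without ConMO heatr1 (0.0807). The gene gar1 was called lower without TUT4MO (-0.61) or ConMO (-0.60), and nop2 without TUT7MO (-0.35). By morpholino the log2 step of gar1 was -0.99 in TUT7MO, -0.90 in TUT47MO, 0.09 in TUT4MO and 0.05 in ConMO.

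**Figure D4:**
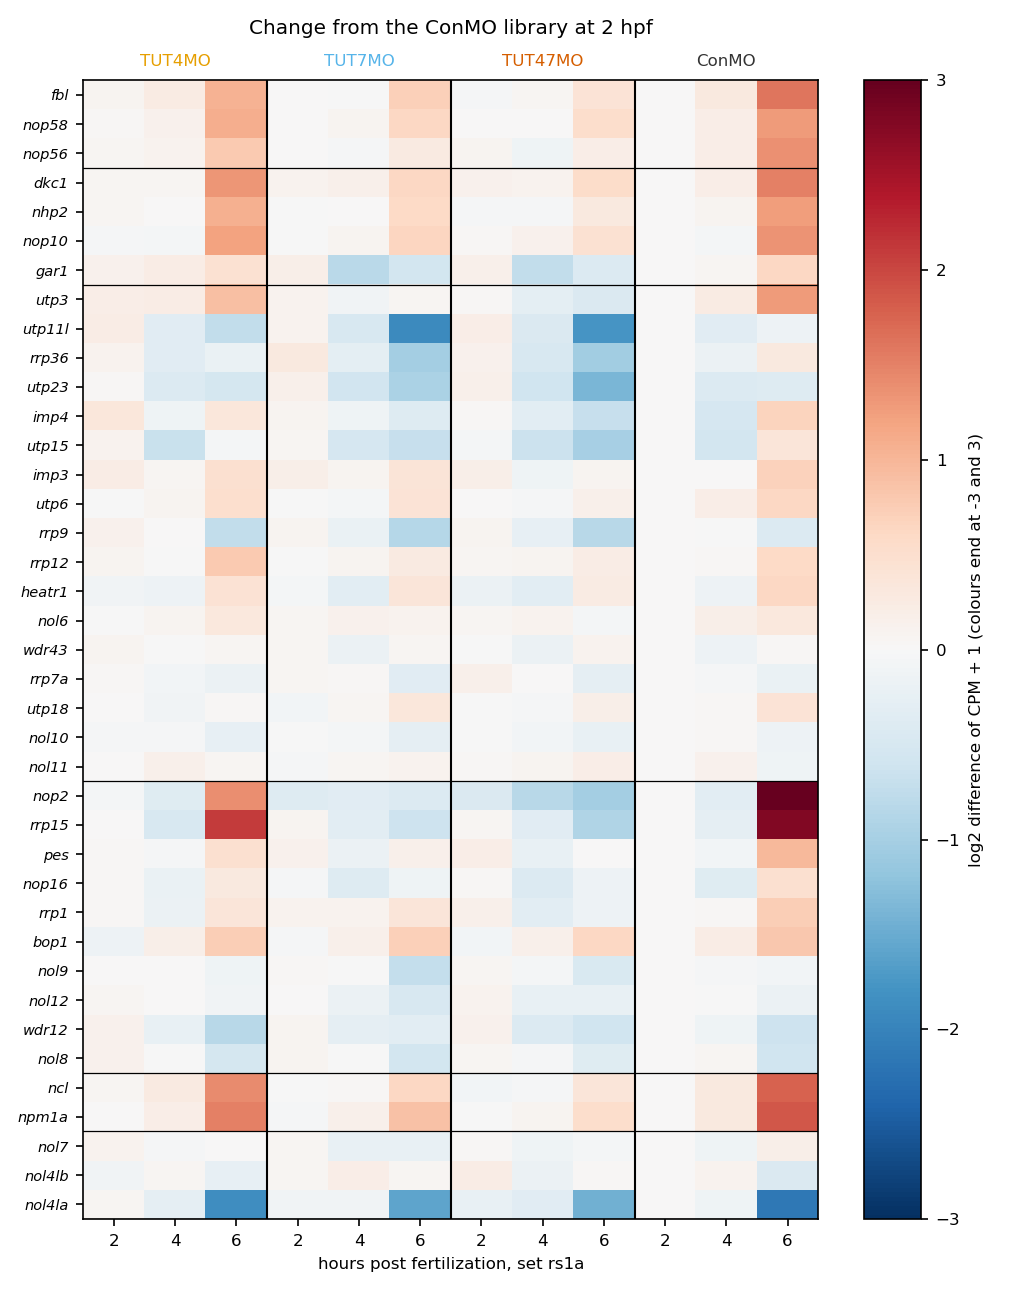
Log2 difference from the ConMO library at 2 hpf for the 39 genes (down the page, by role) in the 12 rs1a libraries (across, by morpholino and hour). At 6 hpf nop2, rrp15, ncl, npm1a and fbl are higher in TUT4MO and ConMO, and nop2 and rrp15 are not higher in TUT7MO and TUT47MO.

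The single knockdowns were made in rs1a only, with 1 library for each hour, so the values at 6 hpf have no replicate check. There the median log2 difference from ConMO over the 39 members was -0.19 in TUT4MO, -0.56 in TUT7MO and -0.63 in TUT47MO, and 31, 33 and 33 of the 39 were below ConMO. Over all 20122 genes that passed the filter on low values the medians were -0.01 in TUT4MO, 0.09 in TUT7MO and 0.07 in TUT47MO. Of these genes 50.5, 44.7 and 46.4% were below ConMO. At 2, 4 and 6 hpf nop2 ran at 13.2, 10.4 and 37.4 CPM in TUT4MO, 10.2, 10.6 and 10.1 CPM in TUT7MO, 9.92, 7.27 and 6.28 CPM in TUT47MO and 13.7, 10.8 and 123 CPM in ConMO. For rrp15 the series was 9.65, 6.59 and 44.4 CPM in TUT4MO, 10.4, 7.58 and 5.9 CPM in TUT7MO, 10.1, 7.47 and 4.71 CPM in TUT47MO and 9.65, 7.78 and 72 CPM in ConMO. Both genes were above their 2 hpf level at 6 hpf in TUT4MO and ConMO and not above it in TUT7MO and TUT47MO. Other genes were higher at 6 than at 2 hpf in all 4 courses. At 6 hpf fbl stood at 310.1 CPM in TUT4MO, 244 CPM in TUT7MO, 199.5 CPM in TUT47MO and 457 CPM in ConMO. The 6 hpf values of ncl were 1994 CPM in TUT4MO, 1151 CPM in TUT7MO, 968 CPM in TUT47MO and 2568 CPM in ConMO. From low to high the order was TUT47MO, TUT7MO, TUT4MO and ConMO in 22 of the 39 members, where 16.8% of the 20088 genes with reads in these libraries had it. It is also the order of the members' medians above, from the same libraries, so this count is not independent of those medians. With 1 library each, no neighbours in that order can be told apart by a test. Both ncl and npm1a and all box C/D and box H/ACA members but gar1 had this order. For gar1 TUT47MO was above TUT7MO, at 26.9 CPM in TUT47MO and 24.2 CPM in TUT7MO, and for utp11l the values were 20.8 CPM in TUT47MO and 18.9 CPM in TUT7MO. Summed zygotic markers at 6 hpf stood at 11601 CPM in TUT4MO, 3424 CPM in TUT7MO, 2436 CPM in TUT47MO and 14285 CPM in ConMO, and their part in these values was not tested.

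Over the 3 hours together, the fit of the 12 rs1a libraries called no member for any of the 3 injections against ConMO, and 0 of 17755 genes (0%). This fit takes a single effect over the hours, so an effect that changes with the hour adds to its residual spread. For nop2 the log2 difference of TUT47MO from ConMO was -0.43 at 2 hpf, -0.51 at 4 hpf and -4.10 at 6 hpf. The lack of calls therefore does not decide whether there was a difference at 6 hpf. At an unadjusted p under 0.05, 0 members were lower in TUT4MO, 1 in TUT7MO and 5 in TUT47MO, and 0 were higher in any, by limma. Over all genes 0.546% were lower in TUT4MO, 1.33% in TUT7MO and 4.16% in TUT47MO, and 0.529%, 2.64% and 6.99% were higher. The median log2 differences were -0.07 in TUT4MO, -0.19 in TUT7MO and -0.23 in TUT47MO. Also edgeR and DESeq2 called no member. At 4 hpf the medians from ConMO over the members were -0.04 in TUT4MO, -0.06 in TUT7MO and -0.13 in TUT47MO, each from 1 library. Over all 20122 genes that passed the filter on low values each of these medians was 0. At that hour AC024175.4 and AC024175.17 took 44.7% of the reads in TUT7MO and 44.6% in TUT47MO. They took 13.5% in TUT4MO and 14.4% in ConMO, and the part of this in the medians was not tested.

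Other genes of the pathway were listed by their known role in ribosome assembly. Of 103 found in the table, 53 were lower and 6 were higher in late TUT47MO embryos than in ConMO, with a median log2 difference of -0.63, where 24% of all genes tested were lower and 26.7% were higher, with a median of 0.06. Among the lower ones, gnl3 (nucleostemin) had 13.8, 24.4 and 34.2 CPM in TUT47MO and 159.9, 198 and 117 CPM in ConMO (log2 difference -2.72 ± 0.32, adjusted p = 0.00201). Late emg1, a methyltransferase of the small subunit's ribosomal RNA, had 4, 3.48 and 6.02 CPM in TUT47MO and 35.2, 39.5 and 29.5 CPM in ConMO (log2 difference -2.72 ± 0.26, adjusted p = 0.00159). In both genes the groups lay far apart. A subunit of RNA polymerase I, polr1b, was lower (-2.13 ± 0.24, adjusted p = 0.00182), while the largest subunit, polr1a, was not called (0.26 ± 0.17, adjusted p = 0.232). The partner of imp3 and imp4, mphosph10, was lower (-0.89 ± 0.21, adjusted p = 0.0128). The 6 higher genes included nufip1 and shq1, which help to assemble small nucleolar ribonucleoproteins, taf1b, a factor of RNA polymerase I initiation, nmd3, an export adaptor of the large subunit, and ubtfl. The largest difference was that of the processome gene cirh1a, at 100.3, 138 and 152 CPM in TUT47MO and 55.2, 68.6 and 71 CPM in ConMO (log2 difference 0.98 ± 0.17, adjusted p = 0.00484). The genes of this list were named after their values were seen. In ConMO, 55 of the 103 were higher late than early and 22 were lower (median 0.42), where 36.8% of all genes were higher and 35.2% were lower. At 4 against 2 hpf in rs1a 5 of 102 rose and 51 fell, where 21.5% of all genes were higher and 17.5% were lower.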

How the data were processed

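Total RNA of whole zebrafish embryos was depleted of ribosomal RNA and sequenced as stranded paired-end libraries, per the labels' protocols. STAR 2.5.3a, RSEM 2.1.31 and the build GRCz10 are named in the submitters' processing notes. The deposited rs1b columns are estimated counts per gene. The deposited columns of the other 2 sets hold a signal: each library's estimated counts times a single factor (from 0.75 to 1.27 for rs1a and from 0.382 to 2.03 for rs2). How the authors derived the factor is not stated in the sources read. Dividing by the factor left 84.1 to 90.7% of the values up to 20 reads whole within 0.02. The spike-in RNA that the labels mention was not used here. Of 32660 entries, 555 (1.7%) have no name or values and were left out.

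Reads were scaled by TMM over all 20 libraries (edgeR 4.0.16) to CPM. Tests used limma 3.58.1 with a trend on log2(CPM + 1), after a filter at a minimum count of 10, with Benjamini-Hochberg adjustment over all genes tested and a threshold of 0.05. Fold changes of low genes are understated on this scale. Early pairs, late pairs and ConMO courses were fitted with the set as a block, the difference of phases with 6 pairs as blocks, and rs1a with hours as a factor. Replicate numbers are the independent sets, so the numbers pair the samples: within-set deviations correlated at 0.79, 0.86 and 0.93 early and 0.50, 0.51 and 0.45 late. Counts of replicate libraries differed beyond sampling noise, with a chi-square of at least 24.3 for each degree of freedom. Alternatives used edgeR and DESeq2 1.42.0 on rounded reads, other scalings, pseudocounts and filters, and left out each set; scripts were tested on simulated data.

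Members, gene lists and tests were chosen with earlier results of these data known. Of the 39 IDs, 38 are in the reference name table, and none stands on more than 1 entry. The text names 22 genes picked by role and the 4 lowest and 4 highest late differences among tested members of like sign in all 3 late pairs; others are marked. Coordinates are not given, because no annotation of GRCz10 was used here.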

Additional observations from a re-analysis of the deposited data

Results flagged for a closer look

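The effect of TUT47MO, late minus early, differed in the test of the difference itself for 24 of the 39 members that were lower and 1 that was higher. Among the 18884 genes tested, 22.9% were lower and 25.1% were higher (48% in either direction). Among the genes named by the rule, the log2 differences of the effect were -1.58 for fbl, -0.96 for nop56 and -1.10 for nop58 in the box C/D class. In the box H/ACA class they were -1.15 for dkc1, -1.06 for gar1, -1.15 for nhp2 and -1.05 for nop10. Among small subunit factors they were -1.08 for utp15, -0.81 for imp3, -1.11 for imp4 and -0.42 for rrp9. Among large subunit factors they were -3.53 for nop2, -2.85 for rrp15, -1.05 for pes, -0.91 for nop16 and -0.66 for rrp1. They were -1.61 for ncl and -1.54 for npm1a, and 0.75 for nol4la. The genes heatr1, wdr43, utp18, bop1 and wdr12 did not pass this test. Of these, heatr1 and bop1 were called lower by limma with median-of-ratios scaling (adjusted p = 0.0253 and 0.0161). The same held with mt- and AC024175 entries left out of the totals (0.0457 and 0.035), and by DESeq2 (0.00652 and 0.00281). Several calls of this test were lost without set rs1a or rs1b. Those of nop56, nop58, utp15, imp3, imp4, rrp9, rrp1, nop16 and nol4la were lost without rs1a and also without rs1b. Those of fbl, gar1, rrp15 and ncl were lost without rs1a.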

How the results depend on the processing

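Of 198 recomputed counts of members called, 164 were within 1.5 times the value reported and 34 were outside. The 198 include the early pairs and the rs1a fits of the morpholinos, where 0 members were called. There a recomputed 0 counted as within, so the share within overstates how stable the counts above 0 were. The late count of lower members (22) was 8 with the deposited scaling and 0 once the 4 hpf pair was added, and ran from 11 to 27 when a set was left out. The late count of higher members (1) was 0 with median-of-ratios scaling, DESeq2, the entries named mt- and AC024175 left out of the totals, or the 4 hpf pair added. It was 2 in the 12-library fit and 0 to 2 with a set left out. With the 5 upper-case symbols added, an alternative chosen after seeing the data, it was 2. With the replicate block removed, that is with pairs ignored, it was 0, and the effect late minus early had 14 lower and 0 higher members. That effect's count of lower members (24) was 6 with the deposited scaling and 7 to 26 with a set left out. Its count of higher members (1) was 0 with median-of-ratios scaling, the deposited scaling or no filter, and 0 to 2 with a set left out. In the ConMO course, 20 higher and 5 lower became 2 and 1 with the deposited scaling, and the lower count was 3 with DESeq2, 2 without the replicate block and 3 whichever set was left out. At 4 against 2 hpf, 2 higher and 13 lower became 0 and 30 with the deposited scaling, and the higher count was 1 without the TUT7MO libraries. There nop56, dkc1, nhp2 and utp18 were not called, at log2 differences from 0.0021 to 0.06, and under the deposited scaling, which shifts the median of all genes to -0.13, they were called lower (-0.18, -0.12, -0.17 and -0.18). The late median over members ran from -1.07 to -0.53, and from -0.99 to -0.69 relative to all genes. The median of all genes moved to 0.31 (late) and -0.22 (ConMO course) with the deposited scaling, and to -0.09 and 0.12 with median-of-ratios scaling. TMM over the 6 late libraries, also added after seeing the data, gave 22 lower. The causes of these changes were not tested. Except with the 4 hpf pair added, the share of all genes called was not computed for these alternatives. With 3 pairs and 2 residual degrees of freedom, small late differences cannot be separated from the spread.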

Other observations

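The table also holds 5 entries whose symbols match the rule only in upper case and which were not counted as members: NOP9, NOP14, UTP20, UTP14C and RRP8. In late embryos UTP14C (log2 difference of TUT47MO from ConMO -2.93 ± 0.31, limma adjusted p = 0.00172), UTP20 (-1.31 ± 0.19, adjusted p = 0.00298) and NOP14 (-0.60 ± 0.18, adjusted p = 0.0293) were lower. NOP9 was higher (0.55 ± 0.18, adjusted p = 0.0448), and RRP8 was not called (-0.24 ± 0.17, adjusted p = 0.267). In the ConMO course, late minus early, UTP14C (2.83), UTP20 (1.85) and NOP14 (0.81) were higher and NOP9 (-0.65) and RRP8 (-0.38) were lower.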
